A study of Mus musculus with 204 samples.

Results

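Solute carriers are membrane proteins that move amino acids, sugars, ions, metals, nucleotides, vitamins and fatty acids across the cell surface or the membranes of organelles. The genes described here are the protein-coding genes of the deposited table whose mouse symbol begins with Slc and a digit, apart from 14 symbols left out by rule. This gave 75 genes of 13153 in the table and of 5110 protein-coding genes. No expression value was used to choose them. The table covers chromosomes 1, 2, 3 and X and the first 40.3 Mb of chromosome 4, so solute carriers encoded outside these stretches are not analysed here.

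RNA was sequenced from 21 tissues of male wild-type C57BL/6J mice. The diet-induced obese (DIO) group received a diet with 60% fat for 10 weeks from 4 weeks of age, and the lean group received a standard chow with 13.1% fat. No group carried a transgene or a deletion. Each tissue had 5 DIO and 5 lean libraries, except subcutaneous fat with 3 DIO and 5 lean, mesenteric fat with 4 DIO and 3 lean, and EDL muscle with 5 DIO and 4 lean. The labels give an age of 6 to 12 weeks at purchase, which is later than the stated start of the diet, and speak of 19 tissues, although 21 are labelled. They do not tie libraries to mice. The p-values therefore measure the spread between libraries of a tissue, and calls in different tissues may come from the same mice.

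Levels are given as CPM, the reads of a gene per 1000000 reads of the library, and whole reads could be recovered for 100% of the values. Library totals ran from 6.58 to 129.7 M reads (1 M is 1000000) with a median of 20.7 M, and the table held 13% to 23.1% of them. Both extremes were DIO libraries of epididymal fat, DIO 5 and DIO 3. In 33 of the 204 libraries a marker of another tissue stood at or above 10 CPM and at 5 or more times the median of its tissue's other libraries, or, in adrenal, the cortex enzyme Hsd3b1 was nearly missing. All 5 lean stomach and all 4 mesenteric DIO libraries were among them. Adrenal DIO 1, DIO 2 and lean 1 had Hsd3b1 at 0.17, 0.083 and 0 CPM. Adrenal DIO 1 also held 3651 CPM of the liver gene Apoa2. For some results that rest on these doubted libraries, values without them are also given.

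Transporters of the family work in layers. Those on the cell surface take nutrients up or release products, those in mitochondria exchange metabolites between matrix and cytosol, and those of the Golgi load nucleotide sugars for glycosylation. Kidney tubules and the intestinal lining are known for dense sets of them, and in adipose tissue members of the family carry zinc, phosphate, lactate and branched-chain amino acids. In whole tissue, fewer cells of a type and less RNA per cell cannot be told apart.

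In lean mice, 67 of the 75 genes reached a mean of 10 CPM in at least 1 tissue, or 89.3% against 65.1% of all protein-coding genes of the table. The other 8 stayed below 10 CPM everywhere: Slc26a7, Slc38a5, Slc7a12 and Slc24a5 peaked between 1.97 and 7.92 CPM, and Slc25a43, Slc9b1, Slc25a31 and Slc25a54 below 1 CPM. Restriction was described by tau, an index that runs from 0 for an even level across the 21 tissues to 1 for a single tissue. The median tau of the 67 genes was 0.51, against 0.36 for the protein-coding genes at the same level. Of the 67, 10 were at or above 10 CPM in all 21 tissues (14.9%, against 28.7% of protein-coding genes) and 9 in a single tissue (13.4%, against 8.57%). Peaks fell in colon for 13 genes, in kidney for 11 and in duodenum and hypothalamus for 6 each, while subcutaneous, mesenteric and retroperitoneal fat, red gastrocnemius and EDL muscle held none. The summed level of all 75 genes was highest in kidney at 8801 CPM and lowest in EDL muscle at 1047 CPM.

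**Figure D1:**
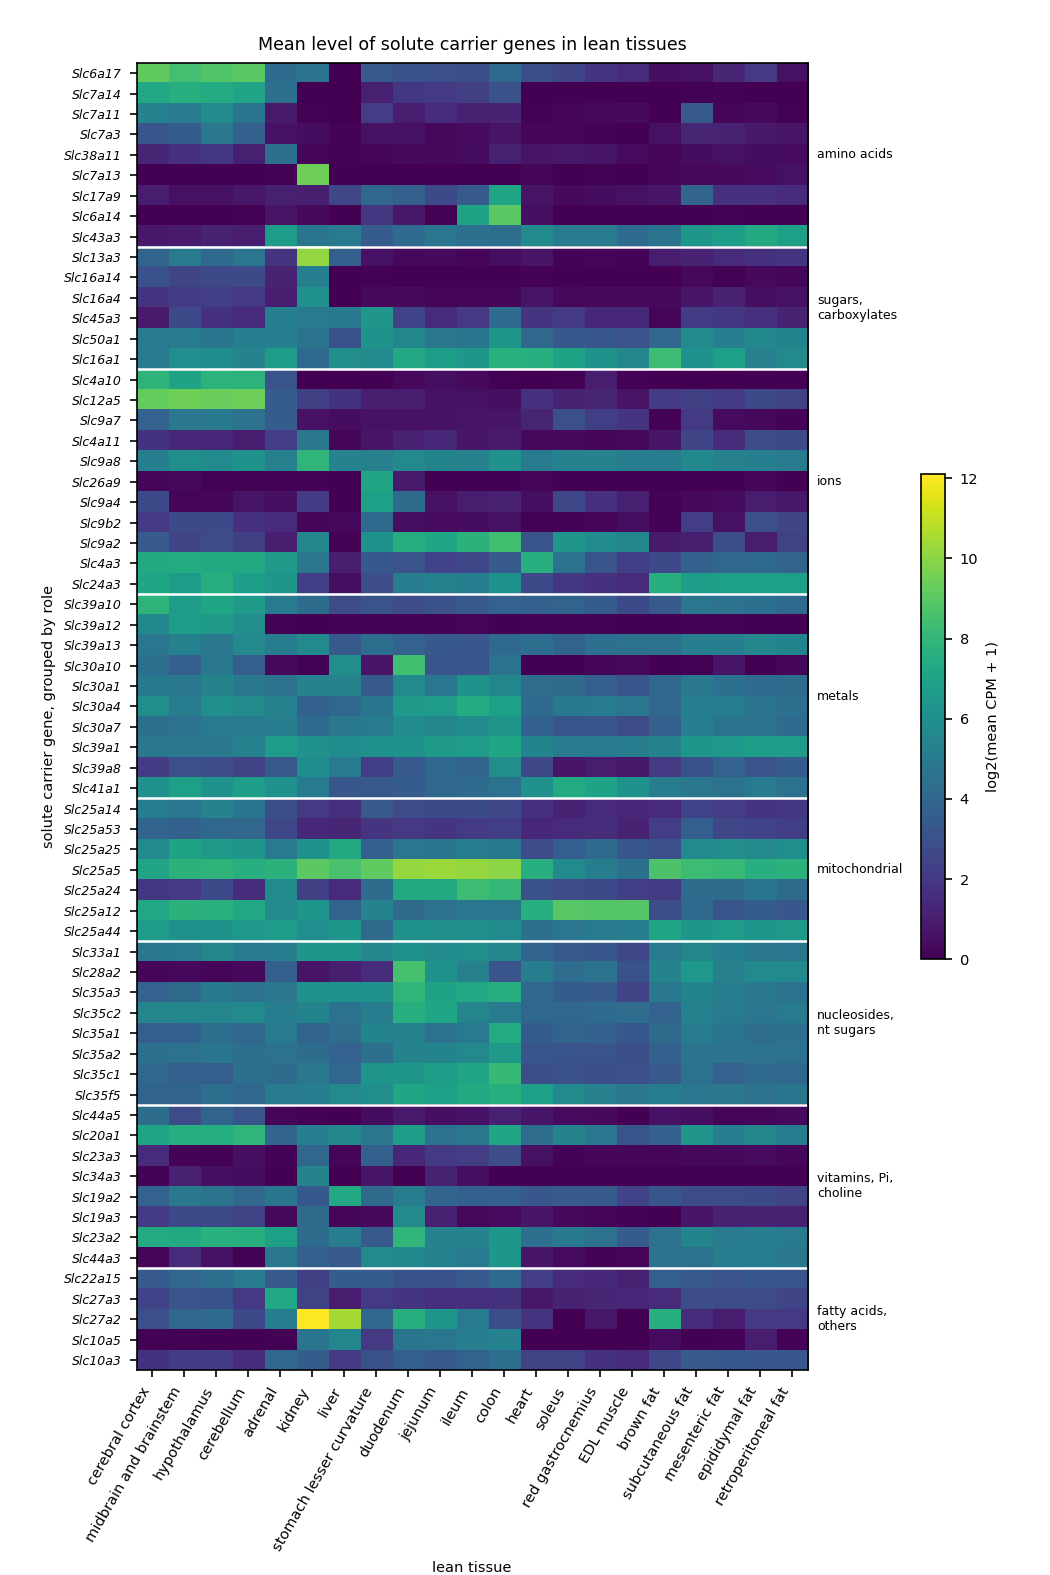
Mean level in 21 lean tissues (columns) of 64 of the 67 solute carrier genes that reached 10 CPM (rows, grouped by role); colour is log2(mean CPM + 1). Slc27a2 in kidney is the brightest cell at 4396 CPM, the brain regions share Slc12a5, Slc4a10 and Slc39a12, and Slc7a13 and Slc26a9 each light up in 1 tissue.

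Among the amino acid and neurotransmitter carriers, 9 of 11 reached 10 CPM, and the most restricted one was Slc7a13, a renal carrier of acidic amino acids and cystine. Its 5 lean kidney libraries held 451, 639, 653, 811 and 863 CPM, and the next tissue mean was 0.44 CPM in retroperitoneal fat (tau 0.99). Slc6a14, which takes up neutral and cationic amino acids, was at 511 ± 85.2 CPM in colon (SD, n = 5) and at 126 CPM in ileum, and stomach followed at 2.75 CPM. Both intestinal segments thus stood far apart from the rest. Slc17a9, the carrier that loads nucleotides into vesicles, was at 136 ± 28.6 CPM in colon, with libraries from 110 to 171 CPM, and at 14.8 CPM in stomach. Slc7a11, the exchanger of cystine for glutamate, was highest in hypothalamus at 56.6 ± 9.01 CPM and next highest in cerebral cortex at 40.3 CPM, where the highest library (46.1 CPM) did not reach the hypothalamic lowest (47.9 CPM).

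The sugar and carboxylate carriers leaned to kidney, where 4 of 7 peaked. Slc13a3, a sodium-coupled importer of dicarboxylates such as succinate, was at 1083, 1085, 1087, 1096 and 1262 CPM in the lean kidney libraries, and at 30.8 CPM in midbrain and brainstem, the second tissue. Slc16a4, an orphan of the monocarboxylate transporter family, was at 68.8 ± 12.4 CPM in kidney with no other tissue mean above 3.72 CPM. Slc16a1, which carries lactate and ketone bodies, was expressed everywhere and peaked in brown fat at 325 ± 32.5 CPM. Slc45a3 peaked in stomach at 79.4 ± 11.9 CPM. All 5 lean stomach libraries carried a foreign marker; with doubted libraries removed its top tissue was adrenal, since no stomach library was left.

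The ion exchangers with the most restricted patterns lay in brain and stomach. Slc12a5, the neuronal potassium-chloride exporter, was at 701 ± 76.8 CPM in midbrain and brainstem, 691 CPM in cerebellum and 647 CPM in hypothalamus, and these neighbours overlapped (highest cerebellar library 811 CPM, lowest midbrain library 626 CPM). Slc4a10, a sodium-bicarbonate transporter of neurons, was equally even over the brain, from 235 ± 18.4 CPM in cortex to 225 CPM in cerebellum and 223 CPM in hypothalamus. Stomach held Slc26a9, a chloride transporter of the gastric lining, at 93.4, 110, 140, 148 and 223 CPM, against a mean of 0.84 CPM in duodenum. It also held Slc9a4, the basolateral sodium-proton exchanger of acid-secreting cells, at 116 ± 38.6 CPM, against 18.4 CPM in duodenum. Every lean stomach library was doubted, and with doubted libraries removed the top tissue of Slc26a9 and Slc9a4 was duodenum.

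The 10 metal carriers all reached 10 CPM. Slc39a12, a zinc importer, was at 107 ± 9.66 CPM in midbrain and brainstem, 93.9 CPM in hypothalamus, 62.8 CPM in cerebellum and 48.5 CPM in cerebral cortex, and no mean outside these brain regions was above 0.105 CPM. Slc39a10, another zinc importer of the cell surface, was highest in cerebral cortex at 236 ± 16.9 CPM, followed by hypothalamus at 137 CPM. Slc30a10, a manganese exporter, was at 151, 290, 421, 434 and 457 CPM in lean duodenum, while liver, the second tissue, was at 62.2 CPM with a highest library of 83.6 CPM. Slc39a8, which imports zinc and manganese, was at 61.2 ± 9.17 CPM in colon and 57.8 CPM in kidney, a difference smaller than the spread. At the even end stood Slc39a1, a zinc importer with 138 ± 3.59 CPM in colon, 110 CPM in epididymal fat and a lowest mean of 27.5 CPM in hypothalamus (tau 0.18). Slc39a13, a zinc carrier of the secretory pathway, was as even (tau 0.20), with 52 ± 2.43 CPM in kidney and 50.6 CPM in cerebellum.

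The promoters of Slc39a1, Slc30a1 and Slc30a7 are shown because these zinc carriers, an importer, the exporter of the cell surface and a Golgi carrier, rose in epididymal and retroperitoneal fat of DIO mice, as given further on. Each is the RefSeq window from 250 bases before to 50 bases after the gene's start (build GRCm38.p6), read along the gene's strand, at chr3:90247942-90248241 (plus strand), chr1:191906531-191906830 (plus strand) and chr3:116007357-116007656 (minus strand). Capitals mark the letters of the metal response element, searched as TGCACNC or TGCGCNC on both strands.
Slc39a1: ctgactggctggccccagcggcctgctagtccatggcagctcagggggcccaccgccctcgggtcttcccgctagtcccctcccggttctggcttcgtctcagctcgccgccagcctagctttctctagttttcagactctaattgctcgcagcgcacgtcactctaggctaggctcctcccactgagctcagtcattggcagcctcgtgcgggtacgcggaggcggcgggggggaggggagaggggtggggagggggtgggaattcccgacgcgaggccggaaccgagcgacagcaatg
Slc30a1: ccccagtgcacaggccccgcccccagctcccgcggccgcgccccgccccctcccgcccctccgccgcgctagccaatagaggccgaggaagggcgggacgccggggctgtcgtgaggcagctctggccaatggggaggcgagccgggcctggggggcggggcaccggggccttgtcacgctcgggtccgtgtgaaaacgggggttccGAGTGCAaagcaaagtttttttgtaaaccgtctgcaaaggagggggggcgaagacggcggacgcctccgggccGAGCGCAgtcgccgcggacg
Slc30a7: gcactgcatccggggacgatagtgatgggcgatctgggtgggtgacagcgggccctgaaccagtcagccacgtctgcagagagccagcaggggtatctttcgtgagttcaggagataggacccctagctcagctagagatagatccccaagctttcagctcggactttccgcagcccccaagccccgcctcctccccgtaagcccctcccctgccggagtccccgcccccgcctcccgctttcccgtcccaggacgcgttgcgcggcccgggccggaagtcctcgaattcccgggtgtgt
Slc30a1 held 2 matches, GAGTGCA with its first base 43 bases before the start and GAGCGCA with its first base at position 31 after it, and the windows of Slc39a1 and Slc30a7 held none. Such letters occurred in 5 of 10 promoters of metal carriers (50%), in 23 of the 60 promoters matched to the 75 genes (38.3%) and in 6908 of 27018 promoters of the same length (25.6%). A match is a description of the letters only. The RefSeq start of Slc39a10 lies outside its GENCODE gene, so its window is not shown.

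Of the 10 mitochondrial carriers 7 reached 10 CPM. Slc25a5, an exchanger of ADP for ATP, was at 1251 ± 235 CPM in jejunum, 1176 CPM in ileum and 1155 CPM in duodenum, and at 20.9 CPM in EDL muscle; it has processed copies in the genome, and how the counting shared reads between them is not stated. Slc25a12, the aspartate-glutamate carrier, was at 493 ± 27.3 CPM in soleus, 481 CPM in red gastrocnemius and 459 CPM in EDL muscle, and lowest in brown fat at 6.41 CPM. Slc25a24, a calcium-regulated carrier of ATP and phosphate, was at 329 ± 44.3 CPM in ileum and 263 CPM in colon, and its relative Slc25a25 at 162 ± 81.3 CPM in liver, where libraries ran from 92.1 to 292 CPM. Slc25a44, which brings branched-chain amino acids into mitochondria and has a known part in brown fat, had the lowest tau of the 67 genes (0.18). Its lean brown fat libraries held 126, 136, 142, 149 and 165 CPM, the highest tissue mean, against 101 CPM in mesenteric fat and 17.1 CPM in stomach.

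All 8 carriers of nucleosides, nucleotide sugars and acetyl-CoA reached 10 CPM. Slc28a2, which takes up purine nucleosides, was at 86.6, 256, 375, 488 and 703 CPM in lean duodenum, a wide spread (mean 382 ± 233 CPM), and it has a near-identical neighbouring copy that could share its reads. The 6 Slc35 genes, nearly all Golgi carriers of nucleotide sugars, peaked in colon or duodenum. Slc35c1, for GDP-fucose, was at 273 ± 11.3 CPM in colon and 142 CPM in ileum, and Slc35a1, for CMP-sialic acid, at 169 ± 44.4 CPM in colon against 42.5 CPM in stomach. Slc35a3, for UDP-N-acetylglucosamine, was at 240 ± 69.5 CPM in duodenum, with its lowest library (177 CPM) below the mean of colon (183 CPM). Slc33a1, the acetyl-CoA carrier of the endoplasmic reticulum, was even (tau 0.22), at 84.3 ± 9.32 CPM in liver and 79.9 CPM in kidney.

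Vitamin, phosphate and choline carriers peaked in 6 tissues. Both thiamine transporters stood high in a single organ: Slc19a3 in duodenum at 51.2 ± 13.8 CPM, against 17.1 CPM in kidney, and Slc19a2 in liver at 156 ± 22 CPM, against 33.5 CPM in duodenum. Slc20a1, a sodium-phosphate cotransporter, was highest in cerebellum at 242 ± 16.9 CPM. Slc44a3, a member of the choline transporter-like family, was highest in colon at 79.9 ± 8.11 CPM and nearly missing from cerebellum at 0.059 CPM.

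Of the 5 genes left, 2 belong to the fatty acid transport proteins, which activate fatty acids to their coenzyme A esters. Slc27a2 was at 3902, 4287, 4506, 4620 and 4665 CPM in lean kidney, at 1414 CPM in liver and at 200 CPM in duodenum. Per kilobase of exon its kidney mean was 1171 CPM, the highest such peak among the 75 genes. Slc25a5 in jejunum at 760.0 and Slc7a13 in kidney at 319 CPM per kilobase were lower. Slc27a3 was highest in adrenal at 146 ± 97.2 CPM, where lean 1, the library with no Hsd3b1, held 1.71 CPM and the other 4 averaged 182 ± 62.6 CPM. The top tissue was unchanged for 64 of the 67 genes when medians replaced means and for 61 when doubted libraries were left out.

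Neighbouring lean tissues were compared in 1 limma fit over all lean libraries, calling a gene at an adjusted p under 0.05 and a log2 difference of at least 1. That fit shares 1 estimate of spread per gene over the 21 lean tissues. Its SE and p therefore do not measure the spread of the compared tissues alone. Liver and kidney differed most: 6 of 67 genes were higher in liver and 24 in kidney, while of 3459 genes tested 9.63% were higher in liver and 28.4% in kidney. Slc7a13 (0.016 against 683 CPM, -9.36 ± 0.10 on the log2 scale, SE) and Slc13a3 (11.7 against 1122 CPM, -6.48 ± 0.16) led the kidney side. On the liver side stood Slc30a10, at 62.2 ± 13.7 CPM against 0.036 CPM (5.91 ± 0.26), and Slc19a2, at 156 ± 22 against 9.19 ± 1.30 CPM (3.94 ± 0.24). The adjusted p of these 4 lay between 3.8e-86 and 7.95e-27. Rescaling the libraries moved the log2 differences by a median of 0.40 towards liver, and after it 10 genes were higher in liver and 24 in kidney (15.1% and 21.2% of all genes).

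Along the gut the set changed step by step. From duodenum to jejunum 8 genes were lower and 1 higher (3.76% and 3.99% of all genes), led by Slc30a10 (351 ± 129 to 8.43 ± 1.01 CPM, -5.12 ± 0.26) and Slc19a3 (51.2 ± 13.8 to 1.12 ± 0.75 CPM, -4.64 ± 0.15). From jejunum to ileum 3 genes were higher and 1 lower (2.37% and 1.56%), or 2 and 3 after rescaling (1.97% and 1.76%). Slc6a14 stood at 0.036 CPM in jejunum and 126 ± 83.7 CPM in ileum (6.65 ± 0.24), Slc30a1, the zinc exporter, was at 25.7 ± 4.88 and 70.4 ± 11.1 CPM (1.42 ± 0.19), and Slc35c2 was lower in ileum, at 44.1 ± 5.24 against 137 ± 17.9 CPM (-1.61 ± 0.15). From ileum to colon 13 genes were higher and 2 lower (6.88% and 3.67%). Slc17a9 (3.66 ± 0.38) and Slc35a1 (2.45 ± 0.29) led the rise towards colon, and Slc27a2 (29.5 ± 6.67 to 6.47 ± 2.48 CPM, -2.07 ± 0.52) and Slc28a2 (38.1 ± 29.7 to 8.06 ± 1.40 CPM, -1.82 ± 0.32) were lower there.

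Brown fat differed from epididymal fat in the same fit, with 4 genes higher and 14 lower (5.49% and 27.1% of all genes). The balance depended on scaling, which shifted the log2 differences by a median of 0.50: after rescaling 8 were higher and 8 lower (10.2% and 16.4%). Slc27a2 was at 194 ± 58.5 CPM in brown fat and 2.98 ± 3.99 CPM in epididymal fat (6.27 ± 0.52), and Slc16a1 at 325 ± 32.5 against 37.1 ± 5.93 CPM (3.10 ± 0.19). Slc25a25 (6.76 ± 1.66 against 53.1 ± 16.7 CPM, -2.77 ± 0.25) and Slc43a3, a purine nucleobase transporter (24.5 ± 3.87 against 164 ± 26.5 CPM, -2.69 ± 0.23), were lower in brown fat. These 4 passed under either scaling. They were also kept without the doubted libraries, which included brown fat lean 2, lean 3 and lean 5. Soleus had 16 genes above EDL muscle and 0 below, by limma with and without adjustment of p (9.80% and 2.60% of all genes), but 4 and 1 after rescaling (4.97% and 5.41%), with a median shift of -0.26. Slc4a3, a chloride-bicarbonate exchanger (21.9 ± 6.51 against 3.67 ± 1.21 CPM, 2.28 ± 0.36), and Slc20a1 (41.1 ± 34.9 against 7.88 ± 2.22 CPM, 1.79 ± 0.40) led. In cerebral cortex 5 genes were above cerebellum and 1 below (7.49% and 6.10%): Slc39a10 was at 236 ± 16.9 against 90.5 ± 21 CPM (1.40 ± 0.25), and Slc22a15, an organic ion carrier, at 9.73 ± 0.92 against 30.0 ± 4.62 CPM (-1.52 ± 0.18).

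Most changes of the family with diet were called in fat. DIO was compared with lean in each tissue by limma on log2(CPM + 1), over every gene averaging 10 CPM or more, so that the solute carriers tested numbered 17 in EDL muscle to 44 in kidney and hypothalamus. Of the 67 genes tested somewhere, 35 passed an adjusted p of 0.05 in at least 1 tissue, 28 of them only as rises, 3 only as falls and 4 in both directions, and 32 passed nowhere. The calls lay in 8 tissues: the 4 white fat depots, brown fat, liver, jejunum and red gastrocnemius. None passed in the other 13, by this limma fit or by edgeR, where 0 to 14 genes had an unadjusted p under 0.05. Few genes of any kind passed there: 1.71% in soleus, 0.289% in duodenum, 0.128% in adrenal, 0.114% in heart, 0.0684% in EDL muscle, 0.0505% in kidney, 0.0493% in stomach, and 0% in hypothalamus, cerebral cortex, midbrain and brainstem, cerebellum, ileum and colon. Other limma settings did call carriers in some of these tissues, as counted at the end. Array weights did so in duodenum, stomach, heart, colon, adrenal and kidney, and a single fit of all tissues in adrenal, duodenum and stomach. The adrenal groups included DIO 1, DIO 2 and lean 1, which nearly lacked Hsd3b1.

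**Figure D2:**
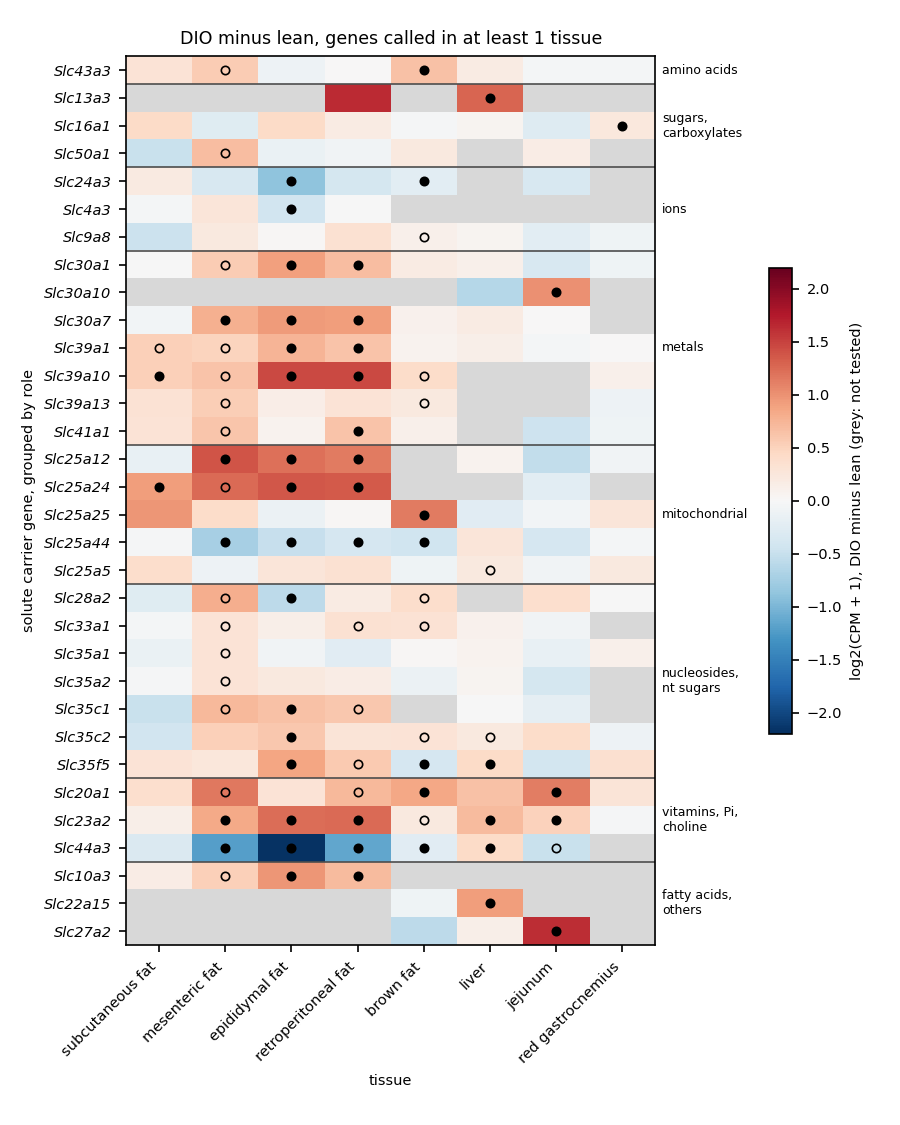
Change with diet of 32 of the 35 solute carrier genes called in at least 1 tissue (rows, grouped by role) in the 8 tissues with calls (columns); colour is the log2 difference DIO minus lean and grey was not tested. Filled circles passed with deposited and with rescaled values, open circles with deposited values only; Slc44a3 in epididymal fat is the deepest fall (-2.18) and Slc27a2 in jejunum the largest called rise (1.62).

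In epididymal fat 12 of 33 solute carriers rose and 5 fell, and the same numbers held after rescaling. Over all genes 36.3% rose and 17.8% fell, so with deposited values the family's shares of rises and falls lay near the background. After rescaling 28.8% of all genes rose and 25.7% fell, beside the same 12 and 5 carriers. Scaling shifted the median of all genes by 0.15 in this depot. The median log2 change of the 33 genes was 0.23, beside 0.17 for all genes. All 4 macrophage markers rose, their sum running from 1146 to 3363 CPM in DIO and from 122 to 182 CPM in lean libraries, and both adipocyte markers fell, from 12661 to 18665 CPM in lean to 3769 to 10338 CPM in DIO. Of 3 endothelial markers 2 fell (sums of all 3: 159 to 290 CPM in DIO, 267 to 349 CPM in lean). The part of these markers in the changes of the carriers was not tested.

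The deepest fall was that of Slc44a3 (chr3:121459528-121532404, GENCODE M21), the choline transporter-like protein. It stood at 28.4, 35, 35.4, 37.6 and 42.4 CPM in lean and at 4.35, 5.16, 6.96, 8.76 and 12.2 CPM in DIO epididymal fat, so the groups did not overlap (-2.18 ± 0.22, adjusted p 4.8e-06). Slc24a3, a potassium-dependent sodium-calcium exchanger, fell from 115 ± 15.6 to 65.1 ± 25.3 CPM, with overlap (-0.89 ± 0.23, adjusted p 0.0059). Slc28a2 fell from 54.2 ± 14.8 to 35.7 ± 8.18 CPM, with overlapping groups (-0.57 ± 0.20, adjusted p 0.025), and 4 of 10 fits that left out a library lost the call. Slc25a44 fell from 79.9 ± 8.24 to 56.5 ± 11.9 CPM (-0.51 ± 0.14, adjusted p 0.0093), each DIO library below each lean one. The remaining fall was that of Slc4a3, from 16.7 ± 2.54 to 12.2 ± 0.89 CPM (-0.42 ± 0.13), named outside the rule.

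Of 7 metal carriers tested in this depot 4 rose, all of them zinc carriers, beside 36.3% of all genes. The zinc carriers Slc30a4 (-0.03, adjusted p 0.89) and Slc39a13 (0.14, adjusted p 0.30) and the magnesium carrier Slc41a1 (0.07, adjusted p 0.62) did not pass. Slc39a10 was at 14.1, 20.7, 21, 21.6 and 23.7 CPM in lean and at 42.4, 49.5, 55.6, 64.3 and 77.5 CPM in DIO libraries (1.46 ± 0.17, adjusted p 1.7e-05). Slc39a1 rose from 110 ± 8.60 to 184 ± 9.31 CPM (0.74 ± 0.10, adjusted p 6.8e-05). The exporter Slc30a1 rose from 17.6 ± 4.04 to 33.5 ± 7.92 CPM (0.89 ± 0.19) and the Golgi zinc carrier Slc30a7 from 22.9 ± 2.92 to 44.8 ± 8.26 CPM (0.93 ± 0.14). In each of these 4 genes every DIO library stood above every lean one.

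Outside the metals, Slc25a24 was at 22, 25, 25.1, 26.6 and 27.7 CPM in lean and 48.2, 56.4, 77.0, 78.5 and 79.5 CPM in DIO epididymal fat (1.37 ± 0.15, adjusted p 8.4e-06). Slc23a2, the sodium-coupled vitamin C transporter, was at 28.5, 31.6, 33.8, 34.3 and 44.8 CPM in lean and 69.7, 73.5, 76.1, 92.0 and 102 CPM in DIO (1.23 ± 0.14, adjusted p 1.5e-05). Neither pair of groups overlapped. Slc25a12 rose from 10.7 to 26.4 CPM (1.22 ± 0.19) and Slc10a3, a member of the bile acid transporter family, from 8.74 to 18.1 CPM (0.97 ± 0.16); both were chosen for mention after their values were seen, as were Slc30a1 and Slc30a7. Further rises were those of Slc35f5, Slc35c1 and Slc35c2, from 0.60 to 0.87 on the log2 scale.

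Retroperitoneal fat repeated much of this, with 15 of 34 carriers up and 2 down, against 35% and 10% of all genes. Scaling shifted the median of all genes by 0.24, and 11 rose and 4 fell after it (20.8% and 17.7% of all genes). Macrophage markers summed to 877 to 3233 CPM in DIO and 93.2 to 174 CPM in lean libraries, with 4 of 4 raised, and both adipocyte markers fell. Of 3 endothelial markers 1 rose, while the sum of all 3 ran from 208 to 329 CPM in DIO and from 251 to 338 CPM in lean. Of 2 skeletal muscle markers tested 1 fell (sums of the list 1.57 to 5.36 CPM in DIO, 3.8 to 212 CPM in lean). The part of these markers was not tested. Slc39a10 was at 6.87, 17.8, 17.9, 17.9 and 22.6 CPM in lean and 30.2, 43.9, 50.5, 50.5 and 50.8 CPM in DIO (1.45 ± 0.26, adjusted p 0.00083). Slc25a24 rose from 17.1 ± 5.47 to 43.1 ± 4.36 CPM (1.34 ± 0.21, adjusted p 0.00028) and Slc23a2 from 31.8 ± 8.51 to 77.3 ± 27.2 CPM (1.24 ± 0.25, adjusted p 0.0016), both without overlap. Of the metal carriers 5 of 7 rose under either scaling, Slc39a1, Slc30a1, Slc30a7 and Slc41a1, a magnesium carrier, beside Slc39a10. Slc44a3 fell from 28 ± 3.53 to 12.5 ± 3.55 CPM (-1.14 ± 0.19, adjusted p 0.00041) and Slc25a44 from 90.7 ± 8.93 to 69.6 ± 5.43 CPM (-0.37 ± 0.12, adjusted p 0.019), while Slc20a1, called at 0.71 ± 0.20, was not called after rescaling (0.46, adjusted p 0.091). Without DIO 4, a library with 107 CPM of the liver marker Apoa2, 16 carriers were called, beside 38.5% of all genes.

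**Figure D3:**
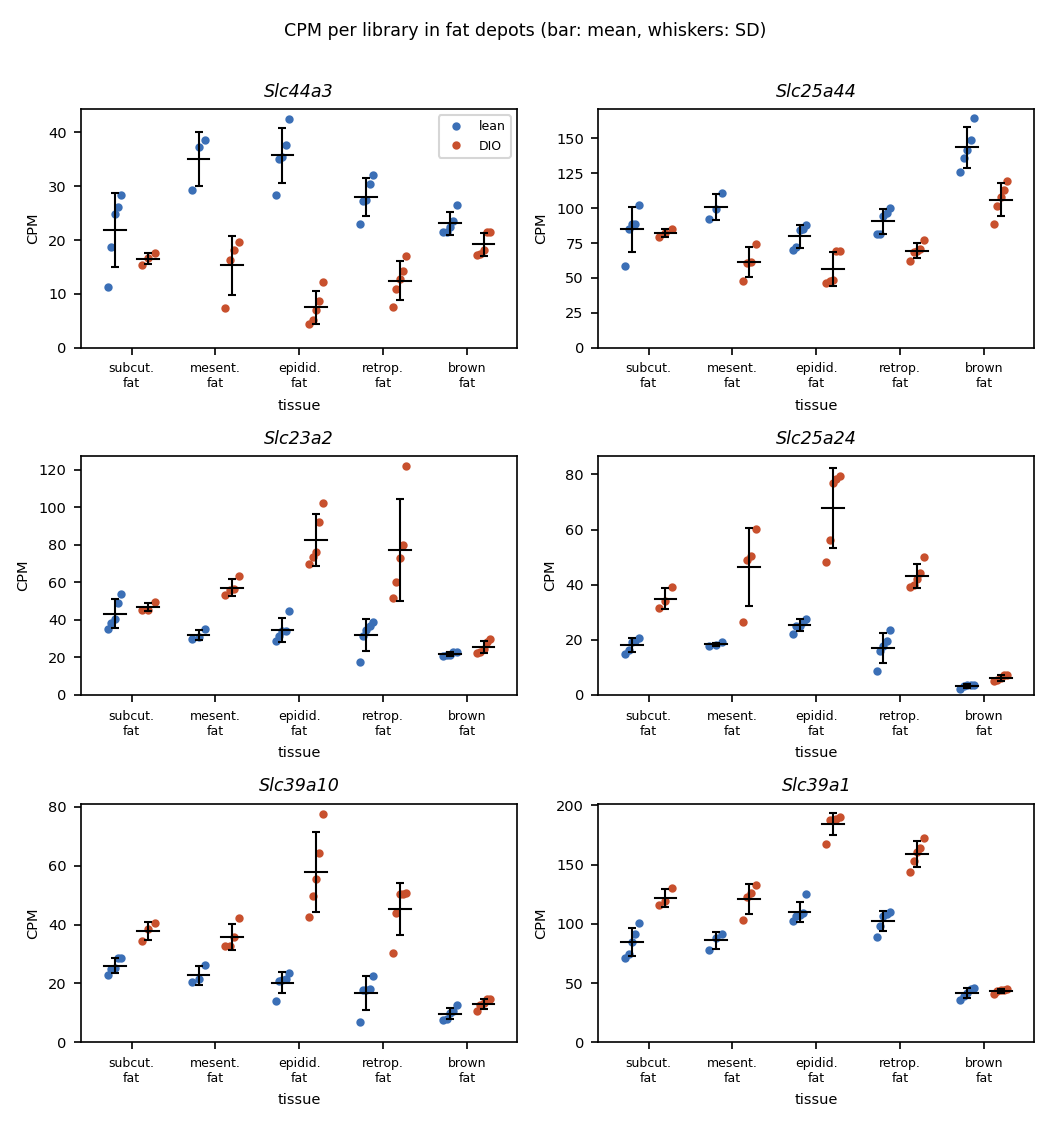
CPM of 6 solute carrier genes in each library of 5 fat depots (points; blue lean, red DIO), with the mean as a bar and the SD as whiskers. In epididymal fat the DIO libraries of Slc44a3 (4.35 to 12.2 CPM) lie below all lean ones and those of Slc39a10 (42.4 to 77.5 CPM) above all lean ones, whereas in subcutaneous fat the groups of Slc44a3 and Slc23a2 overlap.

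Mesenteric fat, with 4 DIO and 3 lean libraries, gave the longest list and the one most tied to scaling. With the deposited values 20 of 34 carriers rose and 3 fell (38% and 6.9% of all genes), but the median of all genes shifted by 0.40 on rescaling, which left 3 rises and 5 falls (8.69% and 16.2%). The 3 rises that passed both ways were Slc25a12, from 7.04, 8.12 and 8.71 CPM in lean to 14.5, 18.5, 28.9 and 31.7 CPM in DIO (1.39 ± 0.28, adjusted p 0.0091; rescaled 1.0), Slc23a2, from 31.8 ± 2.71 to 57.2 ± 4.32 CPM (0.83 ± 0.10, adjusted p 0.0016; rescaled 0.42), and Slc30a7, from 24.4 to 43.4 CPM (0.79 ± 0.14, adjusted p 0.0062; rescaled 0.39). Slc25a24 (1.24 ± 0.26) and Slc20a1 (1.17 ± 0.26) passed only with deposited values, with rescaled adjusted p of 0.069 and 0.053. The 3 falls passed under either scaling. Among them, Slc44a3 went from 29.3, 37.3 and 38.7 CPM to 7.33, 16.2, 18.1 and 19.7 CPM (-1.22 ± 0.32; rescaled -1.61) and Slc25a44 from 101 ± 9.33 to 61.3 ± 10.9 CPM (-0.72 ± 0.15; rescaled -1.13). All 4 DIO libraries held a foreign marker; without DIO 2, with 269 CPM of the lymphoid gene Cr2, and DIO 4, with 146 CPM of the pancreatic gene Cel, 26 carriers were called, beside 66.7% of all genes. Left out singly, lean 1, lean 2, lean 3 and DIO 4 brought the 23 calls to 7, 12, 8 and 14. Macrophage markers summed to 531 to 817 CPM in DIO and 98.8 to 140 CPM in lean, with 3 of 3 tested raised. Of 2 adipocyte markers 1 fell (sums of 6802 to 13514 CPM in DIO, 13544 to 15020 CPM in lean), and of 3 endothelial markers 1 rose (267 to 376 against 223 to 259 CPM). The part of these markers was not tested.

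Subcutaneous fat, with 3 DIO and 5 lean libraries, had the fewest calls among the white depots. Of 32 carriers 3 rose and 0 fell, beside 8.83% and 3.64% of all genes. By limma 6 rises and 0 falls had an unadjusted p under 0.05, and edgeR also called 3 and 0. The number of calls depended on the libraries used, as given below. After rescaling 2 rose (6.51% and 3.5% of all genes up and down). Slc25a24 rose from 14.9, 16.4, 19.3, 19.7 and 20.6 CPM to 31.7, 34 and 39.3 CPM (0.91 ± 0.14, adjusted p 0.0056). Slc39a10 rose from 26.1 ± 2.49 to 37.8 ± 3.08 CPM (0.52 ± 0.11, adjusted p 0.019) and Slc39a1 from 84.5 ± 12.0 to 122 ± 7.57 CPM (0.53 ± 0.13, adjusted p 0.039; rescaled 0.091). These 3 genes rose in all 4 white depots with the deposited values. Without lean 2 and lean 3, which held 147 and 146 CPM of Cr2, 11 carriers were called, 8 up and 3 down, beside 46.4% of all genes. Without DIO 1, DIO 2 or DIO 3, 1 call was left in each case. With lean 2 and lean 3 included, macrophage markers did not pass, and their sum overlapped between the groups (200 to 286 CPM in DIO, 89.5 to 576 CPM in lean). Of 3 endothelial markers 1 rose (sums of all 3: 364 to 428 against 194 to 319 CPM), and its part was not tested.

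In brown fat 10 of 30 carriers rose and 5 fell (29% and 15.1% of all genes), and 3 rose and 8 fell after rescaling (18.8% and 29.8%), the median of all genes having shifted by 0.13. Slc20a1 was at 7.68, 12.3, 13, 13.2 and 13.4 CPM in lean and 20.0, 20.0, 20.2, 22.3 and 27.5 CPM in DIO (0.85 ± 0.14, adjusted p 0.00061). Slc25a25, below the level set for naming, rose from 6.76 ± 1.66 to 16.6 ± 5.83 CPM (1.15 ± 0.22, adjusted p 0.0012), without overlap. Slc43a3 rose from 24.5 ± 3.87 to 38.6 ± 5.19 CPM (0.64 ± 0.11, adjusted p 0.0009), and Slc28a2 from 41.3 ± 8.36 to 54.3 ± 8.07 CPM with overlap (0.40 ± 0.13, adjusted p 0.025; rescaled 0.052), a call that 6 of 10 fits leaving out a library lost. On the falling side Slc25a44 went from 126, 136, 142, 149 and 165 CPM to 88.5, 101, 108, 113 and 120 CPM (-0.43 ± 0.09, adjusted p 0.0024) and Slc35f5 from 34.3 ± 4.02 to 26.4 ± 3.19 CPM (-0.36 ± 0.09, adjusted p 0.0077). The fall of Slc25a44 left no overlap between the groups. Endothelial markers rose here, 3 of 3, from sums of 111 to 162 CPM in lean to 238 to 293 CPM in DIO, and 2 of 2 tested macrophage markers rose, from 12.7 to 20.3 CPM to 21.4 to 62.9 CPM, while 1 of 2 adipocyte markers fell (7376 to 8203 against 7060 to 8309 CPM); their part was not tested. Without DIO 5 and lean 2, which held 330 and 158 CPM of the muscle gene Tnnc2, 9 carriers were called, 5 up and 4 down, beside 38.7% of all genes.

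In liver 9 of 32 carriers rose and 0 fell, beside 20.9% and 6.06% of all genes; 1 fall had an unadjusted p under 0.05 by limma and edgeR called 0. The median of all genes shifted by 0.13, and 7 rose and 1 fell after rescaling (8.83% and 12.6%). Slc13a3, the dicarboxylate importer, was at 9.96, 10.7, 11.8, 11.9 and 14 CPM in lean and 21.1, 22.3, 29.6, 33.1 and 47.7 CPM in DIO (1.27 ± 0.19, adjusted p 0.00077). Slc22a15 was at 6.48, 10.9, 11.5, 11.7 and 13.3 CPM in lean and 17.5, 17.8, 19.9, 23.5 and 25.8 CPM in DIO (0.91 ± 0.17, adjusted p 0.0026). Both sets of groups stood apart without overlap. Slc23a2 rose from 33 ± 9.92 to 52.3 ± 5.30 CPM (0.69 ± 0.17, adjusted p 0.013), and Slc44a3, which fell in fat, rose from 9.90 ± 1.07 to 13.6 ± 1.10 CPM (0.42 ± 0.09, adjusted p 0.005). An index, the mean log2 level of 5 genes minus that of 5 others, which varies between libraries of many tissues, also differed here, from 0.26 to 0.50 in DIO and 0.58 to 0.93 in lean libraries. These ranges did not overlap, so index and diet cannot be told apart in liver, and a call lost with the index does not decide between them. With the index added to the limma model, an alternative chosen after seeing the data, 1 carrier was called, beside 3.35% of all genes. Slc13a3, Slc22a15 and Slc23a2 then had changes of 1.21, 0.96 and 0.18 with adjusted p of 0.071, 0.095 and 0.73. Of 3 liver markers 2 fell (sums of 11307 to 13271 CPM in DIO, 13451 to 15798 CPM in lean). Fabp2, which liver also expresses, rose (165 to 198 against 84.6 to 135 CPM), and 1 of 2 adipocyte markers rose (sums of both 28 to 45.8 against 28.5 to 37.5 CPM). The part of these markers was not tested.

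Jejunum had 4 of 34 carriers up and 1 down (3.56% and 6.58% of all genes), and 4 up and 0 down after rescaling (3.51% and 3.61%). Slc27a2, the very long-chain acyl-CoA synthetase and fatty acid transport protein (chr2:126552407-126588243), was at 57.9, 68.7, 83.4, 86.2 and 115 CPM in lean and 197, 222, 258, 268 and 310 CPM in DIO libraries (1.62 ± 0.18, adjusted p 0.00032). The groups were far apart, and each of the 10 fits that left out a library kept the call. Slc20a1, the phosphate cotransporter, rose from 22.9 ± 9.80 to 50.3 ± 21.4 CPM with overlap (1.12 ± 0.31, adjusted p 0.039), Slc23a2 from 40.6 ± 2.2 to 58.6 ± 11 CPM (0.50 ± 0.13, adjusted p 0.037), and Slc44a3 fell from 39.4 ± 3.19 to 28.1 ± 5.01 CPM (-0.49 ± 0.13, adjusted p 0.039; rescaled 0.08). Slc30a10, below the level set for naming, rose from 8.43 ± 1.01 to 19.2 ± 8.26 CPM (1.0 ± 0.26, adjusted p 0.035). Fabp2, the marker of the absorptive lining, also rose, from 1997 to 6825 CPM in lean to 6009 to 26299 CPM in DIO; its part was not tested. Without DIO 3, DIO 5 and lean 2, which held the lymphoid marker Cr2, Slc27a2 was the 1 carrier called, beside 2.24% of all genes. Left out singly, DIO 1, DIO 3, lean 3, lean 4 or lean 5 also brought the 5 calls to 1, and DIO 4 or lean 2 to 2.

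**Figure D4:**
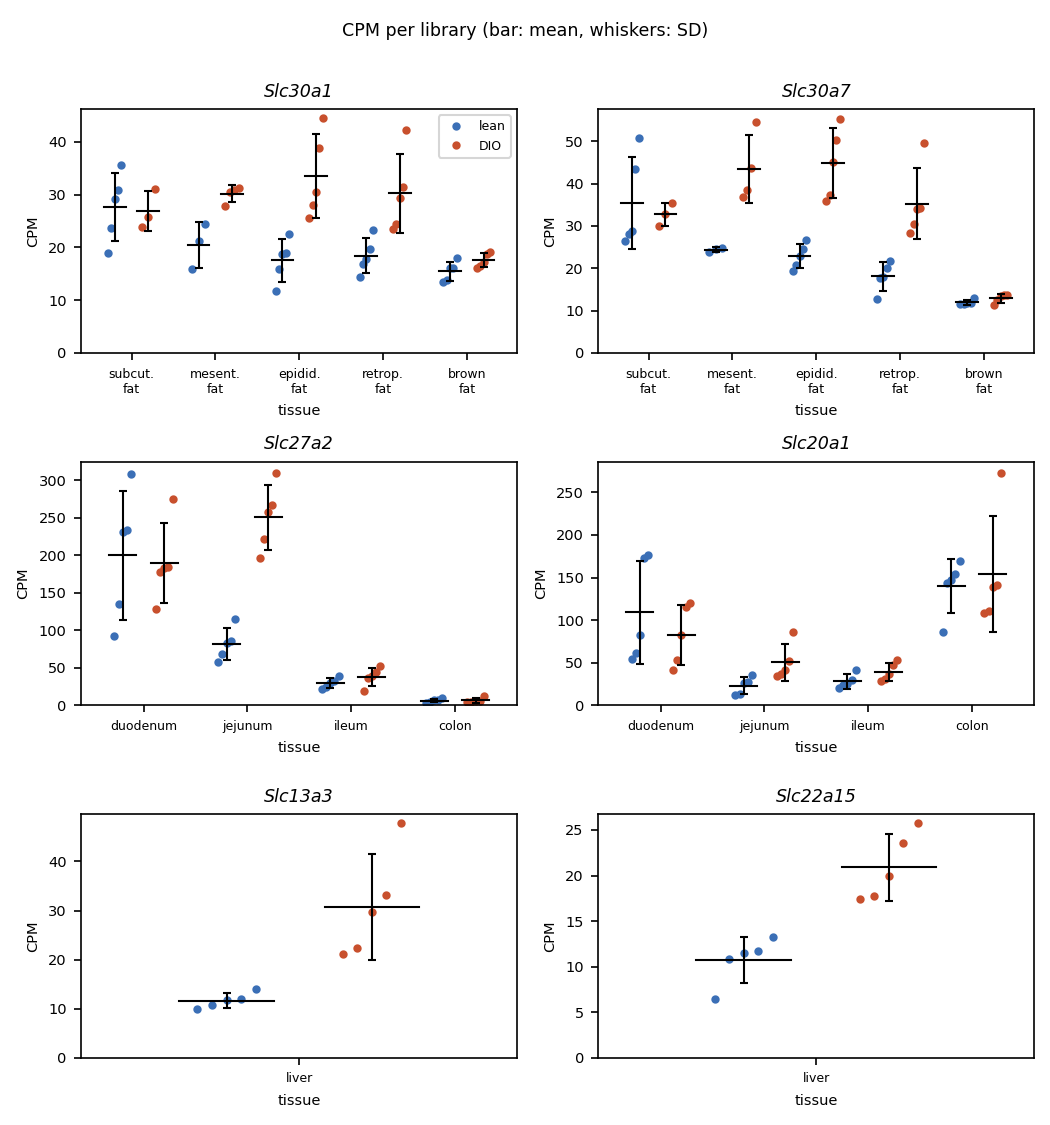
CPM per library (points; blue lean, red DIO; bar mean, whiskers SD) of 2 zinc carriers in 5 fat depots, of Slc27a2 and Slc20a1 along the gut, and of Slc13a3 and Slc22a15 in liver. Slc27a2 in jejunum runs from 57.9 to 115 CPM in lean and from 197 to 310 CPM in DIO, while in duodenum the groups overlap.

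Red gastrocnemius gave 1 call among 23 carriers, a rise, and 0 falls (3.29% and 1.77% of all genes up and down); 1 fall had an unadjusted p under 0.05 by limma and edgeR called 0. Slc16a1, the lactate transporter, was at 64.0, 70.1, 74.2, 74.4 and 78.2 CPM in lean and 77.1, 84.6, 86.0, 88.4 and 90.1 CPM in DIO (0.24 ± 0.06, adjusted p 0.042). Only the lowest DIO library fell within the lean range. The call was kept in 2 of the 10 fits without a library, those without DIO 1 and lean 3.

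Duodenum had no call among 40 carriers, yet its lean libraries were not alike. Slc9a4, the exchanger high in stomach, was at 0.58, 2.61, 4.95, 10.9 and 73.2 CPM in lean duodenum and at 23.6, 27.2, 65.5, 70.8 and 98.8 CPM in DIO duodenum (2.69 ± 0.89, adjusted p 0.18). Slc17a9 was at 2.82, 4.32, 5.14, 6.43 and 41 CPM in lean and 18.7, 20.3, 41.8, 50.9 and 72.5 CPM in DIO (2.16 ± 0.62, adjusted p 0.16). The high lean value belonged to lean 3 in both genes. Lean 3 was also the lowest lean library for Slc28a2 (86.6 CPM) and Slc30a10 (151 CPM). It was not among the doubted libraries. Lean 3 was singled out after its values were seen, so the limma fit without it is no separate test of these genes. In that fit 16 carriers rose and 7 fell, beside 39.3% of all genes called in either direction. Slc9a4 stood at 3.5 ± 0.59 (adjusted p 0.0043), Slc17a9 at 2.74 ± 0.39 (adjusted p 0.0036) and Slc28a2 at -1.54 ± 0.43 (adjusted p 0.021).

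**Figure D5:**
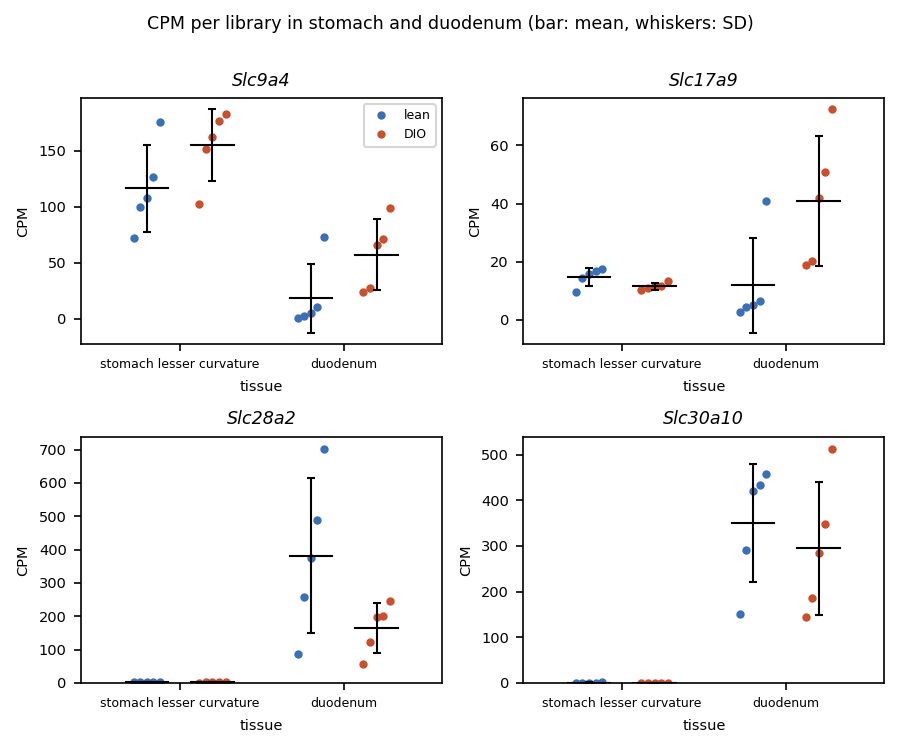
CPM per library (points; blue lean, red DIO; bar mean, whiskers SD) of 4 solute carrier genes in stomach and duodenum. In lean duodenum 1 library stands at 73.2 CPM of Slc9a4 and 41 CPM of Slc17a9, inside the DIO range, while the other 4 stay at or below 10.9 and 6.43 CPM.

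Whether the diet change differed between tissues was tested by an interaction term. Each fit shared an estimate of spread per gene over its tissues. It treated their libraries as independent, although they may come from the same mice. Between the 4 white depots the term passed for 12 of 33 carriers, beside 38.6% of all genes. It passed for 9 after rescaling (32.9%), and for 4 without the libraries that held 100 CPM or more of a foreign marker (22.5%). Slc44a3 had changes of -0.32 in subcutaneous fat, -2.18 in epididymal fat, -1.22 in the mesenteric depot and -1.14 in the retroperitoneal one (adjusted p 0.0037). Slc50a1, a sugar transporter of the SWEET family, stood at -0.50, -0.15, 0.67 and -0.08 in that order, with only the mesenteric value passing its own test (adjusted p 0.0083; 0.055 after rescaling and 0.072 without those libraries). Slc23a2 had changes of 0.12, 1.23, 0.83 and 1.24 (adjusted p 0.01; 0.07 without those libraries). For Slc44a3 and Slc23a2 the subcutaneous change was the smallest of the 4. It was taken with lean 2 and lean 3 included, which held 147 and 146 CPM of Cr2. Between the 4 gut segments the term passed for 6 of 41 carriers, beside 16.1% of all genes, and for 16 without duodenum lean 3 (32.2%). Slc27a2 had changes of 0.01 in duodenum, 1.62 in jejunum and 0.32 in ileum, and Slc9a4 and Slc17a9 had their large changes in duodenum (adjusted p 0.012 for each of the 3).

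Of the 35 genes called in any tissue, 12 were called in 1 tissue and 23 in 2 or more, and 7 were called in the same direction in at least 4. Slc23a2 rose in 6 tissues, mesenteric, epididymal, retroperitoneal and brown fat, liver and jejunum, and in 5 after rescaling, where brown fat was lost (0.22 ± 0.08, from 21.8 ± 0.95 to 25.6 ± 3.27 CPM). Slc39a10 rose in all 5 fat depots, in brown fat from 9.77 ± 2.03 to 13.1 ± 1.70 CPM (0.40 ± 0.14), and in 3 after rescaling. Slc20a1, Slc25a24 and Slc39a1 rose in 4 tissues each, and in 2, 3 and 2 after rescaling. Slc44a3 fell in 5 tissues, in brown fat from 23.1 ± 2.07 to 19.2 ± 2.16 CPM (-0.26 ± 0.08), and in 4 after rescaling, where jejunum was lost. Of the fits that left out a library, 9 of 10 lost its call in jejunum, 4 of 10 in brown fat and 3 of 7 in mesenteric fat. For Slc23a2, 7 of 10 such fits lost the call in brown fat and 7 of 10 in jejunum. Slc25a44 fell in 4 tissues, all of them fat depots, and in the same number after rescaling. Since the tissues may come from the same mice, these counts are not independent repeats.

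The table also held 26 other transporter genes, searched by symbol as ABC transporters, P-type ATPases with their subunits, aquaporins and the Slco organic anion transporters. No aquaporin was among those tested. In epididymal fat 6 of 13 tested rose and 2 fell, beside 36.3% and 17.8% of all genes, and in retroperitoneal fat 5 of 11 rose and 1 fell, beside 35% and 10%. In brown fat 5 of 12 rose (29% of all genes) and 0 fell, by limma with and without adjustment of p and by edgeR (15.1% of all genes). In liver 3 of 9 rose and 2 fell, beside 20.9% and 6.06%, and in mesenteric fat 3 of 11 rose and 1 fell, beside 38% and 6.9%. Of 13 tested in red gastrocnemius 2 rose and 1 fell, beside 3.29% and 1.77%. In jejunum 1 of 10 fell, beside 6.58%, and in soleus 1 of 13, where 1.71% of all genes were called in either direction. Subcutaneous fat, where 3 solute carriers rose, had 0 of 11 called by limma and by edgeR, with 2 rises at an unadjusted p under 0.05.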

How the data were processed

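Per the labels' protocols, polyadenylated RNA of mouse tissues was made into stranded TruSeq libraries and sequenced from both ends. STAR, HTSeq, FastQC and DESeq2 are named in the submitters' processing notes. Genome build, tool versions and strand setting were not given in the sources used here. CPM per gene were deposited by the authors. Of 13154 genes, 1 incomplete one was left out, and 1 of 205 columns matched no sample and was not used, which left 204 libraries. Every value was a whole number of reads within 0.001. Gene names, types and positions came from GENCODE M21 (GRCm38), where 14 identifiers were not found. Of the 75 genes, 13 share at least 5% of their exons with another annotated gene, 9 of them on the opposite strand.

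Each tissue was fitted alone with limma 3.58.1 (R 4.3.3) on log2(CPM + 1), for genes averaging 10 CPM or more in that tissue, with Benjamini-Hochberg adjustment over all genes tested and calls at an adjusted p under 0.05. Interactions across depots or gut segments were F tests in limma, and lean tissues were compared in 1 fit. Rescaling means dividing libraries by median-of-ratios factors. Alternatives were edgeR 4.0.16 on the recovered reads, array weights, a single fit over all tissues, a pseudocount of 5, a filter of 1 CPM or none, and leaving out libraries. Scripts were tested on simulated data. Named genes were, per tissue, the 3 largest called rises and falls reaching 20 CPM, genes called the same way in 4 or more tissues, the 4 highest tau values per role among genes reaching 50 CPM and the 5 lowest tau values of all, the 3 lowest interaction p per test and the 2 largest lean differences per direction. The genes and lists were chosen with earlier results of these data known. A few genes that are part of the counts are not reported here by name.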

Additional observations from a re-analysis of the deposited data

Results flagged for a closer look

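Among 112 groups of 4 or 5 libraries of the named genes, 7 held a library far from its group (6.25%), while chance alone marks about 1 in 20. In brown fat, lean 1 had Slc20a1 at 7.68 CPM against 12.3 to 13.4 CPM in the other lean libraries, and Slc28a2 at 56.0 CPM against 35.5 to 39.9 CPM. Brown fat DIO 4 had Slc35f5 at 32.0 CPM against 24.1 to 25.5 CPM. In epididymal fat, Slc39a1 was at 168 CPM in DIO 5 against 187 to 190 CPM, and at 125 CPM in lean 2 against 103 to 109 CPM. This DIO 5 was the library with the fewest reads, 6.58 M. Mesenteric DIO 2, the library with the lymphoid gene Cr2, had Slc20a1 at 121 CPM against 66.3 to 70.1 CPM in the other DIO libraries. Kidney lean 3 had Slc13a3 at 1262 CPM against 1083 to 1096 CPM.

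The change with diet differed between tissues by the limma interaction test for 6 named genes. Between the white fat depots these were Slc44a3 (adjusted p 0.00371), Slc50a1 (adjusted p 0.00833) and Slc23a2 (adjusted p 0.0102). Between the gut segments they were Slc9a4, Slc17a9 and Slc27a2 (adjusted p 0.0118 each). In Slc9a4 and Slc17a9 the duodenal change rested on lean groups in which lean 3 stood inside the DIO range.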

How the results depend on the processing

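No paired analysis was possible because the labels give no replicate numbers that tie libraries of different groups. All numbers here are counts of solute carriers called. EdgeR on the recovered reads moved none of 21 diet counts by over 1.5 times. With array weights the count became 2 in kidney and red gastrocnemius, 5 in adrenal, 6 in colon, 9 in jejunum, 12 in subcutaneous fat, 15 in heart and 23 in duodenum and stomach. In a single fit of all tissues it was 0 in red gastrocnemius, 3 in liver, 4 in brown fat, 6 in stomach, 7 in subcutaneous fat, 14 in duodenum and 18 in adrenal. With a filter of 1 CPM it was 0 in red gastrocnemius, 28 in epididymal fat and 19 for the depot interaction, and with no filter 0, 1, 28 and 29 in red gastrocnemius, jejunum, retroperitoneal and epididymal fat. The index covariate, chosen after seeing the data, gave 0 in red gastrocnemius, 1 in liver, kidney and subcutaneous fat, and 2 in colon. Without doubted libraries the count was 0 in red gastrocnemius, 1 in adrenal and jejunum, 7 in brown fat and 11 in subcutaneous fat, and it could not be given for mesenteric fat and stomach. Without libraries holding 100 CPM of a foreign marker, also chosen after seeing the data, it was 1 in adrenal, 4 for the depot interaction, 9 in brown fat and 11 in subcutaneous fat. Rescaling gave 8 in mesenteric fat and 5 for soleus against EDL muscle, and a pseudocount of 5 gave 11 for brown against epididymal fat, 6 for soleus against EDL muscle and 2 for cerebral cortex against cerebellum.

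Leaving out 1 library at a time gave 7 to 27 in mesenteric fat, 1 to 6 in jejunum, 1 to 3 in subcutaneous fat, 0 to 2 in red gastrocnemius, 10 to 16 in brown fat, 16 to 18 in epididymal fat, 16 to 19 in retroperitoneal fat, 7 to 9 in liver and 0 to 23 in duodenum, where only the fit without lean 3 gave calls. The depot interaction gave 7 to 16, with 7 without subcutaneous DIO 1, DIO 3 or lean 3. The segment interaction gave 4 to 16, with 16 without duodenum lean 3, 11 without duodenum DIO 1 or DIO 5, 12 without jejunum DIO 2 and 10 without jejunum DIO 5. The lean comparisons gave 17 to 19 for brown and epididymal fat, 11 to 16 for soleus and EDL muscle, 29 to 31 for liver and kidney, 8 to 12 for jejunum and duodenum, 3 to 5 for ileum and jejunum, 13 to 18 for colon and ileum, and 4 to 6 for cortex and cerebellum. No named gene changed direction. Of the 45 named diet changes, all were kept with edgeR, array weights and a pseudocount of 5, while 10 were lost on rescaling, 10 with no filter, 2 with a filter of 1 CPM, 14 in the single fit and 11 with the index covariate. Without doubted libraries 10 of the 24 that could be refitted were lost, without libraries holding 100 CPM of a foreign marker 4 of 28, and of 417 fits that left out 1 library 74 lost the call. The cause of these losses was not tested.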
